A study of Mus musculus with 35 samples.

Results

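The loci described here are the arterial and venous identity genes of the vessel wall: Efnb2 and Gja5 on the arterial side, Ephb4 and Nr2f2 on the venous side. Their members were ATAC-seq peaks, regions of open chromatin, from 1 table of 76018 peaks on mouse build mm9. A peak belonged to a locus when its midpoint fell in a fixed window: chr8:8550000-8860000 for Efnb2, chr3:96760000-96920000 for Gja5, chr5:137770000-137840000 for Ephb4 and chr7:77350000-77700000 for Nr2f2. The windows held 69 peaks, of which 39 were in the Efnb2 window, 7 in the Gja5 window, 9 in the Ephb4 window and 14 in the Nr2f2 window. No measured value entered this rule. Peaks are numbered here by position within their window, and the link from a peak to a gene rests on the window alone. In the RefSeq gene order of GRCm38.p6 the coding neighbours are Slc10a2 and Arglu1 for Efnb2, Slc12a9 and Zan for Ephb4, and Arrdc4 and Gm44812 for Nr2f2. Which gene, exon or intron each peak lies in was not analysed here.

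Arteries and veins are lined by endothelial cells that differ in a small set of signalling and regulatory genes. Efnb2 encodes ephrin-B2, a transmembrane ligand of arterial endothelium, and Ephb4 encodes its receptor tyrosine kinase, known for venous endothelium. Gja5 encodes connexin 40, a gap junction protein of arteries. Nr2f2 encodes COUP-TFII, a nuclear receptor that maintains venous identity and holds back Notch signalling and the arterial programme. Blood stem cells arise from hemogenic endothelium in the large embryonic arteries, which is why arterial and venous genes are of interest along that route.

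The sequence just before the start of each gene is shown because it is the one regulatory stretch of these loci that is tied to a gene and not only to a window. The lines give the 250 bases before the start, 5′ to 3′ on the gene's strand, from RefSeq GRCm38.p6. Capitals mark the core of the ETS transcription factor motif, GGAA, or TTCC where it lies on the other strand. The positions are chr8:8661243-8661492 on the minus strand for Efnb2, chr3:97032152-97032401 on the plus strand for Gja5, chr5:137349859-137350108 on the plus strand for Ephb4 and chr7:70366747-70366996 on the minus strand for Nr2f2.
Efnb2: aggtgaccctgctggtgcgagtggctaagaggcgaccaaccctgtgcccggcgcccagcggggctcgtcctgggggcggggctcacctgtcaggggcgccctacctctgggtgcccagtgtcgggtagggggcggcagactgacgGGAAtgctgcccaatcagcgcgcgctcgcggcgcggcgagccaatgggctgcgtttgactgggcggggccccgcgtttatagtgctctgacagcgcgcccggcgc
Gja5: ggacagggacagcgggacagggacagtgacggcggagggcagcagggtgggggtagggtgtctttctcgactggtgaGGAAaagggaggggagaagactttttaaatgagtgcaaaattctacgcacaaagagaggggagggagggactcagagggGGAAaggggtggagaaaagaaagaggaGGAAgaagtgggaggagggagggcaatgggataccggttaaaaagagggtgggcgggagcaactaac
Ephb4: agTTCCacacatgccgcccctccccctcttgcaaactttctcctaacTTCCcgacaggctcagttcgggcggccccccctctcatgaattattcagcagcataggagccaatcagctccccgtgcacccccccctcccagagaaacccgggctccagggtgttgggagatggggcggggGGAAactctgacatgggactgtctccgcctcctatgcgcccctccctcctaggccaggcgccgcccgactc
Nr2f2: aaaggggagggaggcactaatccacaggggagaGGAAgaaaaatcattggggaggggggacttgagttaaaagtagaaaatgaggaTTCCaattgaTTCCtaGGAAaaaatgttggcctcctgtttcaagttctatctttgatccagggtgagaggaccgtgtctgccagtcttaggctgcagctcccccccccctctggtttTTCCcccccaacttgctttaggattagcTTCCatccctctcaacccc
The ETS core was found 1 time before Efnb2, 3 times before Gja5, 3 times before Ephb4 and 6 times before Nr2f2, and 93.4% of 32851 promoters of the same length hold it on either strand. The longer ETS letters CCGGAA (in 12% of promoters), the SOX letters ACAAT (27.7%), the RBPJ letters GTGGGAA (5.42%, overlapping the ETS core), the E-box CAGCTG (13%) and the GATA letters AGATAA (9.99%) had no match in any of the 4 stretches on either strand. The G and C content was 72% for Efnb2, 56.4% for Gja5, 64% for Ephb4 and 50% for Nr2f2, against a median of 52.4% over all promoters. The peaks are on mm9, a different build, so these stretches were not placed against them.

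The study followed the endothelial-to-hematopoietic transition in mouse embryos of a line labelled 23GFP, a transgene known as a GFP reporter under a Runx1 enhancer, and every group carried it. There were 4 libraries each of endothelial cells (EC) and of hemogenic endothelium (HE) at embryonic day E8.5, at E9.5 and at E10.5. Blood-forming cells were represented by 3 libraries of pro-HSC/HPC at E9.5 (HPC, hematopoietic progenitor cell) and by 4 libraries of pre-HSC I and 4 of pre-HSC II at E10.5, which gave 35 libraries in 9 groups. A library was a pool of 1500 sorted cells, and no source used here gives the number of embryos or litters behind a pool. P-values therefore measure the spread between these libraries, which may be technical. The source label is E8.5 PAS+VU for the E8.5 and also the E9.5 samples and E10.5 AGM+VU for the E10.5 samples, so day and dissected tissue cannot be told apart between E9.5 and E10.5. The cell type labels were not checked against marker genes, because no mm9 gene annotation was used here. In pooled cells, fewer cells with an open region and less opening per cell cannot be told apart.

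Libraries held 456770 to 7415315 counts in peaks, and the 4 windows took 0.0478% to 0.129% of them. The shallowest group was pre-HSC II, at 456770 to 1241216 counts. Within a group, libraries 1 and 2 of E8.5 EC and of E8.5 HE and libraries 1 and 4 of E10.5 HE were shallower than the others. The same held for libraries 3 and 4 of E9.5 EC and of E9.5 HE. Among these are E9.5 EC 3, EC 4 and HE 4, which an alternative below leaves out together. Libraries 2 and 3 of pre-HSC I differed by less than sampling noise and entered as 1 sample, given below as their mean: their chi-square was 0.461 per degree of freedom, where 50 other same-group pairs ranged from 2.59 to 8.04. Levels are in CPM, the usual count unit that divides by the scaled library size. Of the 69 peaks 57 passed the filter on low counts (33 Efnb2, 5 Gja5, 7 Ephb4 and 12 Nr2f2), and the 12 others had mean levels of 1.06 to 1.79 CPM and were not tested. A peak was called at an adjusted p under 0.05 in edgeR's quasi-likelihood test with Benjamini-Hochberg adjustment over all 67131 peaks tested, and fold changes are log2 values of the fit with their standard error (SE).

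Each of 3 windows was dominated by wide, strongly open peaks. Efnb2 peak 15 (chr8:8658488-8662334) was 3846 bp wide with a mean level of 168 CPM over the 9 groups, and its level stood at percentile 99.5 of all peaks. Ephb4 peak 4 (chr5:137788922-137791954, 3032 bp) had 134 CPM and Ephb4 peak 3 (chr5:137779353-137781343) had 86.1 CPM. Nr2f2 peak 11 (chr7:77504494-77507243, 2749 bp) had 82.5 CPM. The Gja5 window held no peak of that size: its highest member, peak 4 (chr3:96828992-96829970), had 13.9 CPM and stood at percentile 78.8. The Efnb2 window also held the most peaks per length together with the Ephb4 window, at 12.6 and 12.9 peaks per 100 kb, against 4.38 for Gja5 and 4 for Nr2f2.

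**Figure D1:**
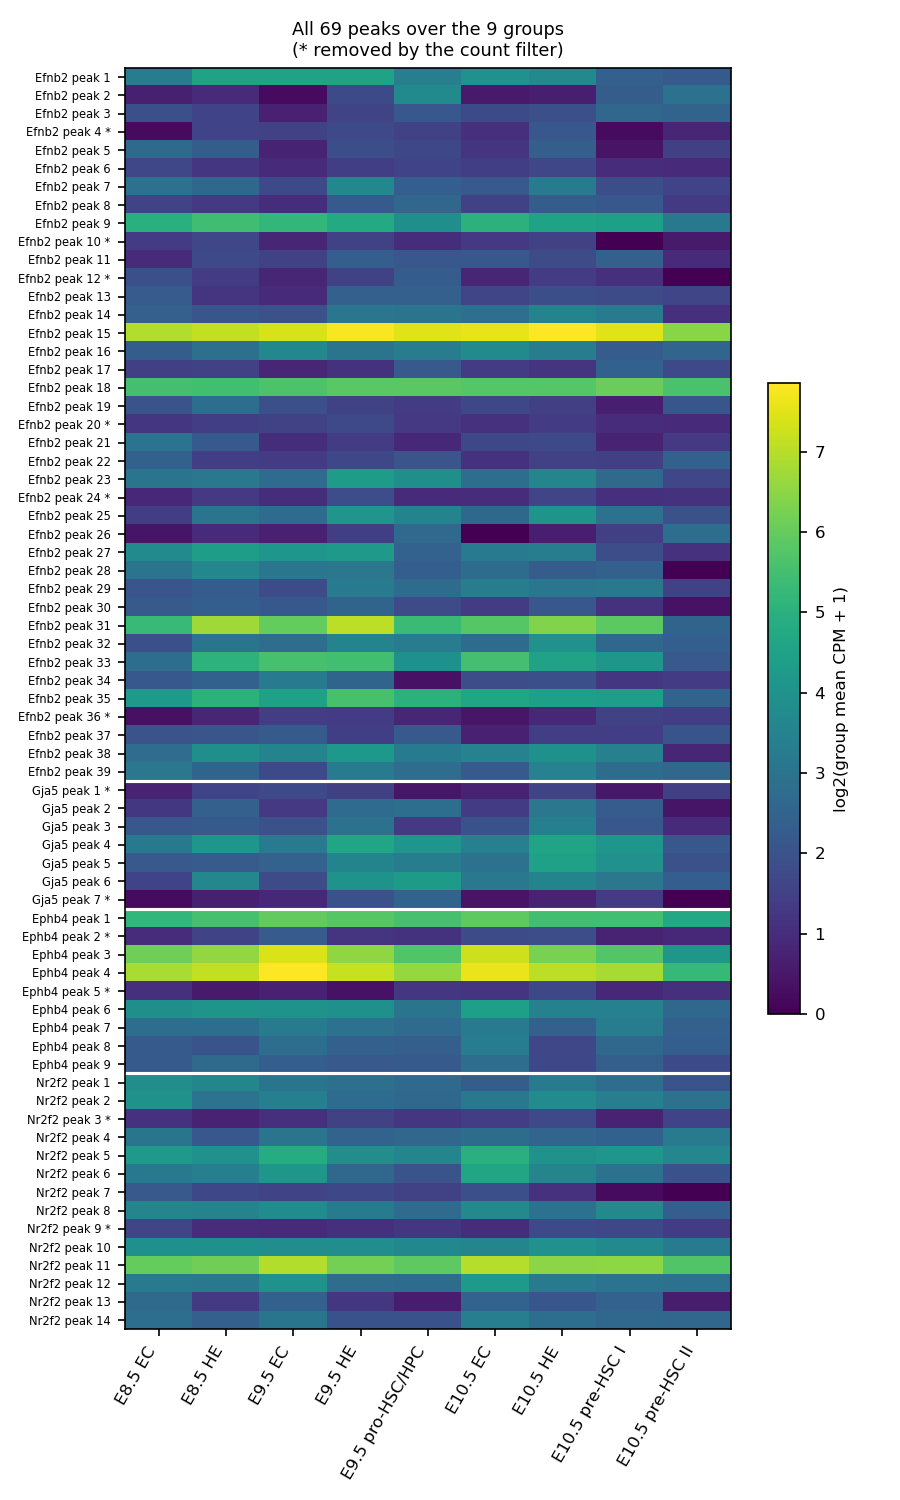
Mean level of each of the 69 peaks (rows, by window and position) in each of the 9 groups (columns), as log2 of the group mean CPM plus 1, with an asterisk on the 12 peaks removed by the count filter. Darker means lower, and the pre-HSC II column is darker than the other columns at most of the strongly open peaks, and Efnb2 peak 18 has a similar shade in every group.

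HE was compared with EC on each day to ask how the vessel identity loci differ between endothelium in general and the endothelium that gives rise to blood. Called peaks of the Efnb2 and Gja5 windows were higher in HE, and called peaks of the Ephb4 and Nr2f2 windows were lower in HE. At E8.5, 3 members were called, all higher in HE (Efnb2 peaks 31 and 33 and Gja5 peak 6), against 1.30% of all tested peaks called higher and 0.131% lower. At E9.5, 5 members were called higher (Efnb2 peaks 7, 23 and 31 and Gja5 peaks 4 and 6) and 2 lower (Nr2f2 peaks 6 and 11), against 1.36% of all tested peaks higher and 1.22% lower. At E10.5, 1 member was called higher (Gja5 peak 5) and 1 lower (Ephb4 peak 3), against 0.717% higher and 1.57% lower. With 57 tested members, 1 call in each direction is near these shares, so the E10.5 counts single out nothing about the loci. The 3 comparisons share no library.

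The signs of the fitted differences, called or not, separated the windows further. Among the tested peaks, HE was the higher group in 21 of 33 Efnb2 peaks at E8.5, in 26 at E9.5 and in 22 at E10.5. All 5 tested Gja5 peaks were higher in HE on each of the 3 days. In the Ephb4 window 6 of 7 tested peaks were higher in HE at E8.5, and 7 of 7 were lower at E9.5 and again at E10.5. In the Nr2f2 window 9 of 12 tested peaks were lower in HE at E8.5, 11 at E9.5 and 9 at E10.5. The median log2 differences, in order of day, were 0.28, 0.80 and 0.24 for Efnb2, 1.03, 1.37 and 1.53 for Gja5, 0.26, -0.37 and -0.94 for Ephb4, and -0.29, -0.80 and -0.62 for Nr2f2. Over all tested peaks the medians were 0.02, 0.05 and 0.01. The sign of each window's median was the same under RLE size factors, scaling by total counts and cyclic loess. These counts and medians are descriptions, since neighbouring peaks of a window share libraries and members that failed the filter are not in them.

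**Figure D2:**
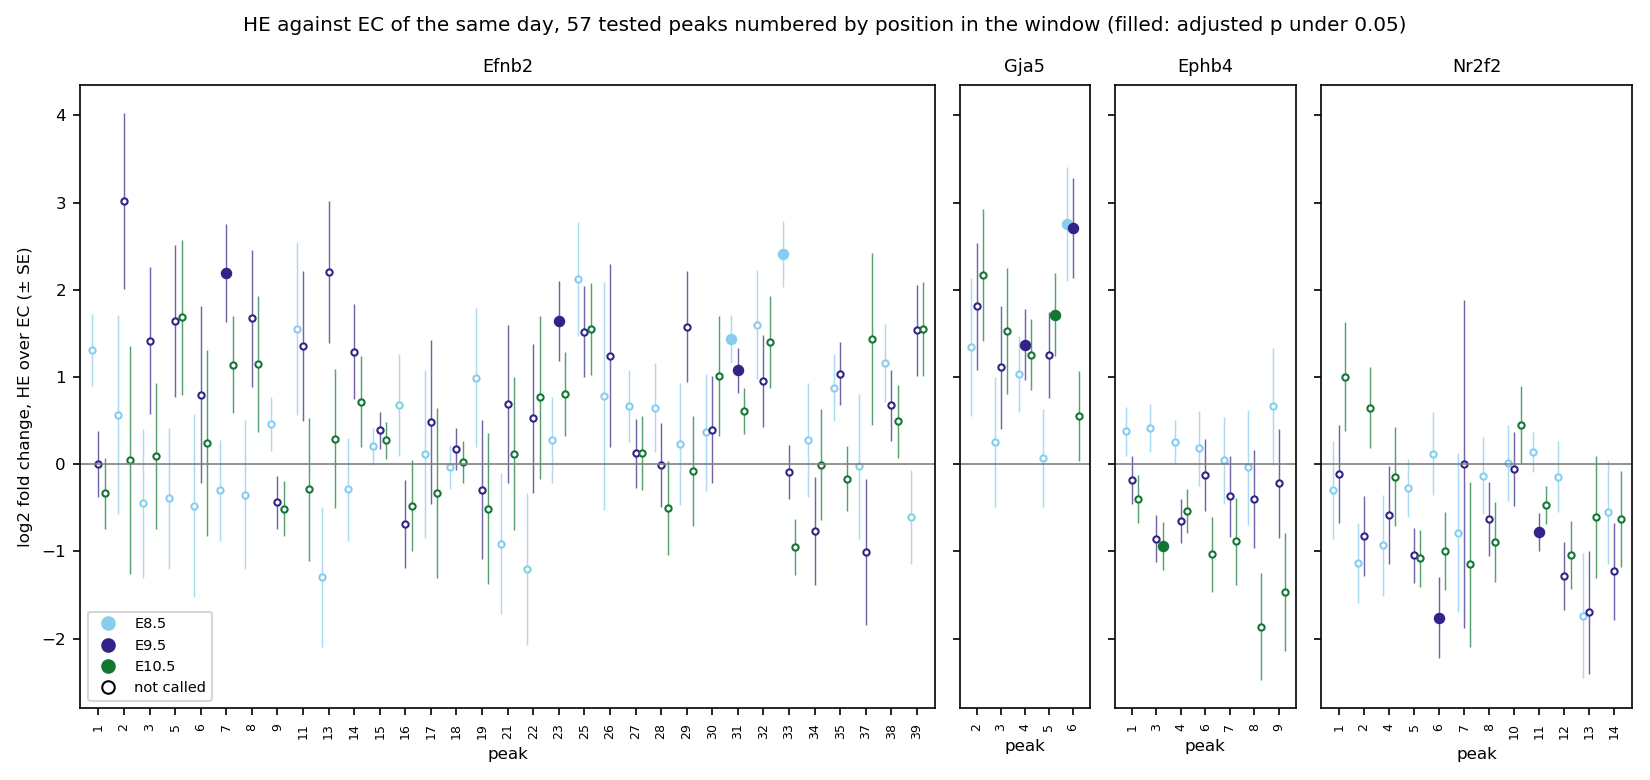
Log2 difference of HE over EC with its SE (y axis) for the 57 tested peaks, ordered by position (x axis), with 1 panel per window. Colours mark the day, and filled points mark an adjusted p under 0.05. Points above 0 are higher in HE. All 5 Gja5 points lie above 0 on each day, and the 7 Ephb4 points lie below 0 at E9.5 and E10.5. Efnb2 peak 26 at E10.5, where EC had 0 counts, is not drawn.

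In the window of the arterial ligand gene Efnb2, the called members did not include the widest peak, and the difference lay in smaller ones. Efnb2 peak 31 (chr8:8801089-8802593) had 38.2, 38.4, 42.1 and 36.5 CPM in the E8.5 EC libraries and 108, 89.4, 122 and 99.2 CPM in the E8.5 HE libraries. The groups were separate by a wide gap, and the peak rose by 1.43 on the log2 scale (SE 0.27, adjusted p = 0.00158, edgeR). At E9.5 it had 69.8, 77.3, 54.8 and 50.3 CPM in EC and 117, 159, 123 and 136 CPM in HE. Every HE library was again above every EC library, with a log2 difference of 1.07 (SE 0.26, adjusted p = 0.0114, edgeR). At E10.5 the EC libraries had 38.6, 51.5, 72.7 and 54.8 CPM and the HE libraries 57.2, 114, 116 and 39.5 CPM. The groups overlapped there, the shallow HE libraries 1 and 4 were the low ones, and the log2 difference of 0.60 was not called (SE 0.26, adjusted p = 0.281, edgeR). Ordered by group mean, this peak ran from E9.5 HE at 134 CPM, E8.5 HE at 105 CPM and E10.5 HE at 81.5 CPM down to E8.5 EC at 38.8 CPM and pre-HSC II at 4.75 CPM. Among neighbours in that order E9.5 HE and E8.5 HE overlapped, as did E8.5 HE and E10.5 HE.

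Efnb2 peak 33 (chr8:8819094-8820146) differed between HE and EC at E8.5 and not detectably at E9.5. It had 4.32, 6.98, 6.44 and 6.73 CPM in E8.5 EC and 27.7, 29.8, 41.3 and 32 CPM in E8.5 HE. No EC library came near an HE library, and the peak was 5.3-fold higher in HE (log2 2.41, SE 0.38, adjusted p = 8.49e-05, edgeR). By E9.5 the EC libraries had reached 46.4, 46.9, 52.2 and 40.8 CPM and the HE libraries 41, 46.9, 47.9 and 38.4 CPM. These groups overlapped, with a log2 difference of -0.09 (95% interval -0.71 to 0.53, adjusted p = 0.968, edgeR). At E10.5 EC had 28.8, 56.1, 56.5 and 36.4 CPM and HE 12.1, 29.3, 34.8 and 12.1 CPM, which overlapped and gave -0.95 without a call (SE 0.32, adjusted p = 0.109, edgeR), and with the replicate block -0.99 with one (adjusted p = 0.0174). An interaction test asked whether the HE over EC difference itself changed between E8.5 and E9.5. It called this 1 member, with -2.50 (SE 0.49, adjusted p = 0.00378, edgeR). A count of 1 is 1.75% of the 57 tested members, near the 1.49% of all tested peaks called in that contrast. It therefore singles out nothing about the loci. That call was lost without the 4 shallow E8.5 libraries (-2.50, adjusted p = 0.138) and without 3 E9.5 libraries, EC 3 and 4 and HE 4, that stood high in 1 chromosome X peak in earlier results (-2.46, adjusted p = 0.0585). It was also lost with every library thinned to the shallowest (-1.77, adjusted p = 0.108, edgeR). Over all tested peaks, 3 higher and 3 lower calls were left without the shallow libraries. Without the E9.5 ones 6 and 38 were left, and 45 and 390 with thinning. No member was called for the change from E9.5 to E10.5 (0.00% of all tested peaks), where edgeR gave 3 members at an unadjusted p under 0.05 (2.63% of all tested peaks) and DESeq2 called 0.

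At E9.5, weaker Efnb2 members were higher in HE too. Efnb2 peak 7 (chr8:8612385-8613187) had 3.43, 1.91, 1.77 and 2.46 CPM in EC and 10.8, 11.7, 11.4 and 12.5 CPM in HE. All HE libraries lay above all EC libraries, with a log2 difference of 2.20 (SE 0.56, adjusted p = 0.0164, edgeR). Efnb2 peak 23 (chr8:8737073-8737806), named after its values were seen, had 9.81, 6.87, 3.54 and 2.46 CPM in EC and 16, 26.7, 15.4 and 17.6 CPM in HE, again without overlap (1.64, SE 0.46, adjusted p = 0.0358, edgeR). Efnb2 peak 15, the widest, had 187, 174, 130 and 173 CPM in E9.5 EC and 196, 226, 197 and 255 CPM in E9.5 HE. The HE libraries were all higher by a small margin, and its differences of 0.20 at E8.5, 0.39 at E9.5 and 0.27 at E10.5 were not called. Efnb2 peak 18 (chr8:8689488-8690952) was called in no comparison and its libraries lay between 31.1 and 74 CPM over all 9 groups.

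The Gja5 window, around the arterial connexin gene, had lower counts, and peak 6 was called at E8.5, peaks 4 and 6 at E9.5 and peak 5 at E10.5. Gja5 peak 6 (chr3:96871424-96872262) had 7.2, 0, 0.758 and 0 CPM in E8.5 EC and 9.63, 10.4, 13.6 and 11.9 CPM in E8.5 HE. HE was the higher group in every library, though EC library 1 stood apart from the other 3, and the log2 difference was 2.75 (SE 0.65, adjusted p = 0.0149, edgeR). At E9.5 it had 1.56, 2.67, 3.54 and 2.11 CPM in EC and 16.7, 10.9, 16.5 and 17.2 CPM in HE. The separation was larger than the spread of either group (2.71, SE 0.57, adjusted p = 0.00295, edgeR). By E10.5 EC had 10.8, 5.15, 5.77 and 9.38 CPM and HE 6.44, 18.7, 15.4 and 1.61 CPM, which overlapped and gave 0.55 without a call (SE 0.52, adjusted p = 0.762, edgeR).

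Gja5 peak 4 had 8.72, 13.4, 5.3 and 7.39 CPM in E9.5 EC and 17.4, 33.4, 18.8 and 24.3 CPM in E9.5 HE. HE was higher in every library, with 1.37 (SE 0.40, adjusted p = 0.0469, edgeR), a call that 12 of 17 alternative settings lost. Its log2 differences of 1.03 at E8.5 (adjusted p = 0.247) and 1.26 at E10.5 (adjusted p = 0.0853, edgeR) were of like size and not called, although the replicate block called the E10.5 one (1.29, adjusted p = 0.0266). Gja5 peak 5 (chr3:96835832-96836566) was the E10.5 member: EC had 3.77, 3.37, 9.81 and 9.38 CPM and HE 16.9, 27.6, 28.8 and 12.1 CPM. The lowest HE library was above the highest EC library, and the difference was 1.71 (SE 0.48, adjusted p = 0.0352, edgeR). It was 2.07 when the shallow HE libraries 1 and 4 were left out (adjusted p = 0.0365, edgeR). Gja5 peak 3 (chr3:96825267-96825686) averaged 3.89 CPM and was called in no comparison.

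Ephb4, the receptor gene of the pair, showed no called member at E8.5 or E9.5 and 1 at E10.5. Ephb4 peak 3 had 172, 174, 171 and 154 CPM in E9.5 EC and 90.9, 96.8, 74.2 and 108 CPM in E9.5 HE. The EC libraries lay all above the HE libraries, yet the difference of -0.86 did not pass the adjustment (SE 0.27, adjusted p = 0.0741, edgeR). At E10.5 EC had 107, 167, 217 and 113 CPM and HE 41.9, 98.7, 134 and 33.1 CPM. The groups overlapped through HE library 3, and the peak fell by 0.94 on the log2 scale (SE 0.27, adjusted p = 0.0481, edgeR). Depth moved with that result: the low values were those of the shallow HE libraries 1 and 4, and without them the difference was -0.39 (adjusted p = 0.744, edgeR). The neighbouring Ephb4 peak 4 was not called on any day, at 0.26 for E8.5 (adjusted p = 0.716), -0.65 for E9.5 (adjusted p = 0.187) and -0.54 for E10.5 (adjusted p = 0.345, edgeR). With the replicate block at E10.5 it had the same -0.54 and an adjusted p of 0.0903 (edgeR), and HE was the lower library in each of the 4 pairs. At an unadjusted p under 0.05 edgeR gave 0 Ephb4 members at E8.5, 2 lower at E9.5 and 5 lower at E10.5, and DESeq2 called 0, 1 and 2 of them. Of all tested peaks 4.91%, 5.99% and 7.65% were lower at that unadjusted threshold.

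Nr2f2, the venous nuclear receptor gene, had called members at E9.5 and none at E8.5 or E10.5, where edgeR gave 2 and 4 lower ones at an unadjusted p under 0.05 and DESeq2 called 0 and 1. Nr2f2 peak 11 had 112, 114, 133 and 135 CPM in E9.5 EC and 67, 53.5, 94.1 and 76 CPM in E9.5 HE. Every EC library was above every HE library, and the peak fell by 0.78 on the log2 scale (SE 0.22, adjusted p = 0.0375, edgeR). At E8.5 the difference was 0.14 (adjusted p = 0.845) and at E10.5 -0.47 (adjusted p = 0.342, edgeR), neither called. Nr2f2 peak 6 (chr7:77493257-77494112) had 14, 19.8, 15 and 19 CPM in E9.5 EC and 3.74, 5.46, 5.7 and 5.48 CPM in E9.5 HE. The gap was wide against the spread, with -1.76 (SE 0.47, adjusted p = 0.0232, edgeR). Nr2f2 peak 5 (chr7:77490867-77491686) had HE below EC without overlap at both E9.5 (-1.04, adjusted p = 0.0565) and E10.5 (-1.08, adjusted p = 0.059, edgeR), and passed at neither, except at E10.5 with the replicate block (-1.03, adjusted p = 0.0294). Nr2f2 peak 10 (chr7:77503165-77504418), next to peak 11, was called in no comparison. From E8.5 to E9.5 a change of the HE over EC difference was called for no Gja5, Ephb4 or Nr2f2 member, where edgeR gave 0, 2 and 3 of them at an unadjusted p under 0.05 (13.3% of all tested peaks) and DESeq2 called 0, 1 and 1.

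Several of these counts rested on few libraries. Without the 4 shallow E8.5 libraries, 17 of all tested peaks were called higher in HE and 0 lower, against 871 and 88 with them. Without EC 3, EC 4 and HE 4 at E9.5, 26 of all tested peaks were higher and 10 lower, against 912 and 821. At E8.5, 1 of the 3 calls held without the 4 shallow libraries (Gja5 peak 6, 4.93, adjusted p = 0.0279), while Efnb2 peak 33 had 2.43 (adjusted p = 0.0525) and Efnb2 peak 31 1.46 (adjusted p = 0.203, edgeR). The Gja5 peak 6 call was lost in turn without E8.5 EC 2, EC 3, EC 4 or HE 3. Over the alternatives in which it passed the filter on low counts, its log2 differences ran from 2.19 to 5.07. Its adjusted p reached 0.0925 (edgeR). At E9.5, no member was called without EC libraries 3 and 4 and HE library 4, which leaves 2 EC and 3 HE libraries, and the values kept their direction, with 0.87 for Efnb2 peak 31 and -0.66 for Nr2f2 peak 11. Leaving out single E9.5 libraries gave 1 call without EC 4, 2 without HE 2 or HE 4, 3 without EC 2 or HE 1, and 4 without EC 3. At E10.5, 0 members were called without EC 2 or EC 3, 1 without HE 1, HE 2 or HE 4, and 3 without HE 3. Of all tested peaks 156 were higher and 426 lower without EC 2, and 225 and 537 without EC 3, against 481 and 1052. The E10.5 replicate numbers paired the EC and HE libraries, and a fit of those groups was made with the replicate number as a block. In that fit 729 of all tested peaks were higher and 1738 lower in HE, against 87 and 50 without the block. Of the members 9 were called, 5 higher and 4 lower in HE, against 0 in the same fit without the block. The higher ones were Gja5 peak 5 (1.84, adjusted p = 0.0103), Gja5 peak 4 (1.29, adjusted p = 0.0266) and Efnb2 peaks 25, 32 and 39 (adjusted p = 0.0407, 0.0449 and 0.0461, edgeR). The lower ones were Ephb4 peak 3 (-1.02, adjusted p = 0.00438), Efnb2 peak 33 (-0.99, adjusted p = 0.0174), Nr2f2 peak 5 (-1.03, adjusted p = 0.0294) and Ephb4 peak 8 (-1.88, adjusted p = 0.0469, edgeR). Nr2f2 peak 11 had -0.40 with the block and was not called (adjusted p = 0.242, edgeR). Efnb2 peaks 25, 32 and 39 and Ephb4 peak 8 are named after their values were seen.

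**Figure D3:**
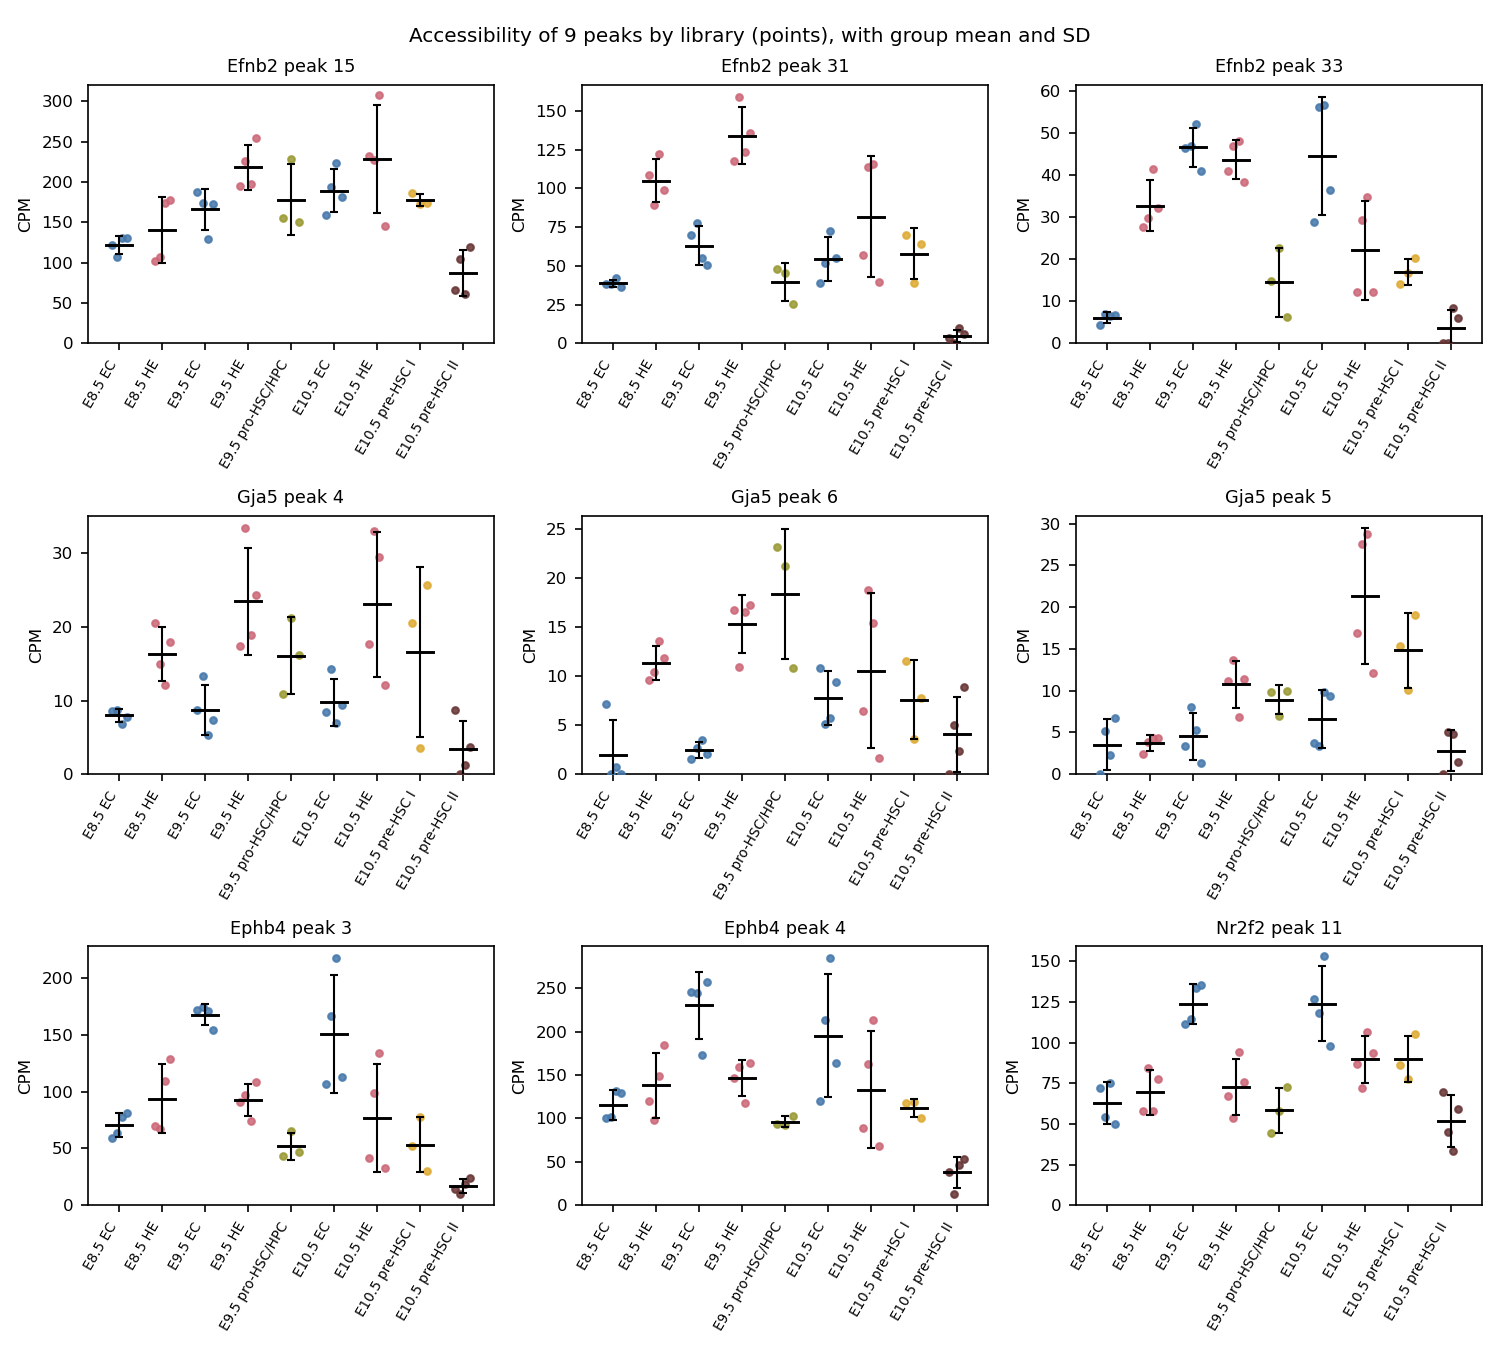
Level in CPM (y axis) of 9 peaks in every library, with 1 point per library, the group mean and SD, and the 9 groups along the x axis. The 4 E8.5 EC libraries of Efnb2 peak 33 sit between 4.32 and 6.98 CPM, below every other EC and HE library of that peak. All 4 pre-HSC II libraries of Efnb2 peak 31 sit at or below 9.55 CPM.

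EC at E9.5 were compared with EC at E8.5 to ask how the loci change within endothelium as the vessels mature, and the highest peaks of the venous windows were among the called members under TMM scaling. Of the members 5 rose (Efnb2 peaks 1 and 33, Ephb4 peaks 3 and 4 and Nr2f2 peak 11) and 2 fell (Efnb2 peaks 5 and 21), against 6.51% of all tested peaks higher and 4.56% lower. With 57 tested members these counts are near the share of all peaks, so they single out nothing about the loci, and the values below describe the members. The EC libraries here are those of the HE comparisons above, so the results are not independent of them. Ephb4 peak 3 had 59, 63.7, 78.1 and 81.5 CPM at E8.5 and, as given, 154 to 174 CPM at E9.5. There was no overlap, and the peak rose by 1.24 on the log2 scale (SE 0.28, adjusted p = 0.00191, edgeR). Ephb4 peak 4 went from 101, 101, 132 and 129 CPM to 246, 245, 173 and 258 CPM. The groups were again separate, with 0.99 (SE 0.26, adjusted p = 0.00698, edgeR). Nr2f2 peak 11 had 72, 54.1, 75.4 and 50 CPM at E8.5, all below the 112 to 135 CPM of E9.5 (0.97, SE 0.22, adjusted p = 0.00256, edgeR). All 7 tested Ephb4 peaks were higher at E9.5, with a median of 0.75 against -0.07 over all tested peaks.

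The largest of these gains was in the arterial Efnb2 window, at peak 33, which was 7.45-fold higher in E9.5 than in E8.5 EC (log2 2.90, SE 0.38, adjusted p = 3.12e-07, edgeR). Efnb2 peak 1 (chr8:8575975-8576847), named after its values were seen, had 5.68 to 11.7 CPM in the 4 libraries at E8.5 and 20.9, 28.4, 19.4 and 19.7 CPM at E9.5, without overlap (1.29, SE 0.41, adjusted p = 0.0313, edgeR). Efnb2 peak 21 (chr8:8713981-8714591) fell from 10.8, 5.23, 2.65 and 8.86 CPM to 0.312, 0.763, 0.884 and 2.11 CPM (-2.78, SE 0.90, adjusted p = 0.0338, edgeR). Without the E8.5 EC libraries, Efnb2 peak 21 would not have passed the filter on low counts. Its call is therefore not independent of its being high in that group. Efnb2 peak 5 (chr8:8604939-8605262) fell from 2.88, 14, 3.03 and 2.13 CPM to a mean of 0.696 ± 0.498 CPM (SD, n = 4) (-2.59, SE 0.89, adjusted p = 0.0475, edgeR), and E8.5 library 2 stood well above the other libraries there. The call of Efnb2 peak 5 was lost in 10 of 15 alternatives and that of Efnb2 peak 21 in 9 of 15. Among them were the omission of E8.5 library 1 or 2 and of E9.5 library 1, 2 or 3. This comparison had 18 alternatives, and in the others these 2 peaks did not pass the filter on low counts. Scaling shifted this comparison: the median of all tested peaks was -0.07 here and -0.30 with scaling by total counts, under which the medians of the Efnb2 (-0.10), Gja5 (-0.04) and Nr2f2 (-0.13) windows changed sign and no called member did. With cyclic loess 3 members were called, and Ephb4 peak 4 (0.52, adjusted p = 0.0525), Nr2f2 peak 11 (0.58, adjusted p = 0.0634) and Efnb2 peaks 5 and 21 were not among them (edgeR). Without the 4 shallow E8.5 libraries 1 member was called, Efnb2 peak 33 (2.78, adjusted p = 0.000571, edgeR), and without E9.5 EC library 2 there were 4. Over all tested peaks these settings called 868 higher and 659 lower, and 3351 and 1634, against 4367 and 3061.

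From E9.5 to E10.5 no member was called in EC, against 0.316% of all tested peaks. At an unadjusted p under 0.05 edgeR gave 6 members, 2 higher and 4 lower, where 9.14% of all tested peaks passed, and DESeq2 called 0. Ephb4 peak 3, for example, stood at 168 ± 9.23 CPM (SD, n = 4) in E9.5 EC and 151 ± 51.9 CPM (SD, n = 4) in E10.5 EC, and Nr2f2 peak 11 at 124 ± 12.5 CPM (SD, n = 4) and 124 ± 22.8 CPM (SD, n = 4).

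Pro-HSC/HPC were compared with E9.5 HE to ask which of these regions change as cells move from endothelium to blood progenitors. The called members were all Efnb2 peaks, and all 4 were lower in pro-HSC/HPC (peaks 27, 31, 33 and 34), against 1.09% of all tested peaks lower and 0.642% higher. Efnb2 peak 31 had 47.9, 45.2 and 25.4 CPM in pro-HSC/HPC, below the lowest HE library at 117 CPM. It fell by 1.73 on the log2 scale (SE 0.30, adjusted p = 0.000703, edgeR). Efnb2 peak 33 had 14.7, 22.6 and 6.17 CPM, also below all HE libraries (-1.54, SE 0.37, adjusted p = 0.0172, edgeR). Efnb2 peak 27 (chr8:8772255-8772834) had 18.8, 26.3, 11.4 and 13.3 CPM in HE and 2.18, 8.31 and 3.08 CPM in pro-HSC/HPC. These groups did not overlap either (-1.99, SE 0.50, adjusted p = 0.0227, edgeR). Efnb2 peak 34 (chr8:8829444-8829912), named after its values were seen, had 82 counts in HE and 2 in pro-HSC/HPC, a ratio of 0.0598 in scaled counts (95% interval 0.00712 to 0.223, for counting error alone, adjusted p = 0.0326, edgeR).

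Other members of the same windows did not follow. Efnb2 peak 15 had 155, 228 and 150 CPM in pro-HSC/HPC, within reach of the HE libraries, and was not called. Gja5 peak 6 had 23.1, 21.2 and 10.8 CPM, with 10.9 to 17.2 CPM in HE, and was not called. The window medians were -0.29 for Efnb2, -0.30 for Gja5, -0.30 for Ephb4 and -0.26 for Nr2f2, close to each other and below the 0.02 of all tested peaks. The count of 4 fell to 2 without HE library 2 and to 1 without pro-HSC/HPC library 1 or library 3. Over all tested peaks these settings called 121 higher and 246 lower, 111 and 250, and 161 and 264, against 431 and 734.

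At E10.5, pre-HSC I were compared with HE and no member was called, against 0.0700% of all tested peaks. At an unadjusted p under 0.05 edgeR gave 7 members, all in the Efnb2 window, 1 higher and 6 lower, where 8.17% of all tested peaks passed, and DESeq2 called 0. Efnb2 peak 31 had 69.9, 39 and 64.3 CPM in pre-HSC I, overlapping the HE libraries. Leaving out the shallow HE libraries 1 and 4 gave 3 calls, all lower in pre-HSC I, where 192 of all tested peaks were higher and 565 lower.

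Most of the called decreases were in pre-HSC II. They were compared with pre-HSC I, the stage before them, and with E10.5 EC, and the comparisons share the pre-HSC II libraries. Against pre-HSC I, 11 members were called, all lower in pre-HSC II (7 Efnb2, 2 Gja5, 2 Ephb4 and 0 Nr2f2), where 4.09% of all tested peaks were lower and 0.840% higher. Against EC, 22 members were lower (10 Efnb2, 1 Gja5, 4 Ephb4 and 7 Nr2f2) and 2 were higher, both in the Efnb2 window, where 16.2% of all tested peaks were lower and 9.14% higher. The pre-HSC II libraries are the shallowest of the study. With every library thinned to the shallowest, 5 members were called against pre-HSC I and 11 against EC, the 11 all lower. Thinning left 491 higher and 663 lower calls over all tested peaks against pre-HSC I, and 2729 and 3292 against EC. The split over all peaks depended on scaling: against EC 6138 peaks were higher and 10845 lower with TMM, and 8434 higher and 6770 lower with cyclic loess. Other scalings moved the median of all tested peaks from -0.14 to between 0.11 and 0.21 against EC, and from -0.16 to between 0.10 and 0.12 against pre-HSC I, and reversed no called member.

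Efnb2 peak 31 had 3.49, 0, 9.55 and 5.94 CPM in pre-HSC II, below every library of the other 8 groups. It was 11.4-fold lower than in pre-HSC I (log2 -3.51, SE 0.41, adjusted p = 5.33e-08, edgeR) and lower than in EC by a similar size (-3.44, SE 0.39, adjusted p = 6.54e-10). Efnb2 peak 33 had 0, 0, 8.36 and 5.94 CPM, against 14.1, 16.7 and 20.2 CPM in pre-HSC I. All pre-HSC II libraries were lower (-2.05, SE 0.51, adjusted p = 0.0099, edgeR). Efnb2 peak 15 had 66.3, 104, 60.9 and 120 CPM in pre-HSC II and 187, 173 and 174 CPM in pre-HSC I. On the log2 scale it fell by 1.00 against pre-HSC I (SE 0.24, adjusted p = 0.00702, edgeR) and by 1.09 against EC (SE 0.22, adjusted p = 0.000134). With cyclic loess neither was called, at -0.36 (adjusted p = 0.249) and -0.40 (adjusted p = 0.0568, edgeR), and the replicate block also lost the call against pre-HSC I. Efnb2 peak 18, in contrast, had 41.9, 52.6, 49 and 48.3 CPM in pre-HSC II and 47.1, 45.6, 59.7 and 63.3 CPM in EC, overlapping groups with no call.

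Some weaker Efnb2 members reached the count floor in pre-HSC II. Efnb2 peak 28 (chr8:8774374-8775092) had 0 counts in all 4 libraries, against 22 counts in pre-HSC I and 87 in EC. With a floor of 3 counts over the group it was at least 5-fold lower than in pre-HSC I (adjusted p = 0.0102) and at least 7.34-fold lower than in EC (adjusted p = 0.000205, edgeR). Efnb2 peak 38 (chr8:8840787-8841674) had 3 counts against 50 in pre-HSC I, a ratio of 0.088 in scaled counts (95% counting interval 0.0176 to 0.272). Efnb2 peak 9 (chr8:8623380-8624297) had 6.98, 7.52, 0 and 17.8 CPM against 24.5, 46.6, 28.6 and 29.9 CPM in EC, all lower (-1.86, SE 0.38, adjusted p = 0.000137, edgeR). Both members that were higher in pre-HSC II than in EC were weak. Without the pre-HSC II libraries, Efnb2 peak 26 would not have passed the filter on low counts. Its call is therefore not independent of its being high in that group. Efnb2 peak 26 (chr8:8746799-8747040) had 20 counts against 0 in EC, at least 26.3-fold higher over the floor (adjusted p = 0.000313), and Efnb2 peak 2 (chr8:8593907-8594201) had 3.49, 8.77, 4.78 and 10.4 CPM against 0.943, 0.99, 0 and 0 CPM in EC (3.76, SE 0.96, adjusted p = 0.0021, edgeR). The latter had values above those of EC in pro-HSC/HPC too, at 11.4, 16.2 and 9.25 CPM.

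Members of the venous windows were lower in pre-HSC II as well, mainly against EC. Ephb4 peak 3 had 14, 10, 19.1 and 23.8 CPM in pre-HSC II, below the 52.6, 78 and 29.8 CPM of pre-HSC I and the EC libraries. It fell by 1.62 on the log2 scale against pre-HSC I (SE 0.36, adjusted p = 0.00332) and was 8.69-fold lower than in EC (log2 -3.12, SE 0.33, adjusted p = 1.33e-10, edgeR). Ephb4 peak 4 had 38.4, 12.5, 46.6 and 53.5 CPM, against 117, 119 and 101 CPM in pre-HSC I, again with no overlap (-1.55, SE 0.30, adjusted p = 0.000935, edgeR). Against EC, Ephb4 peak 1 (chr5:137774328-137775775) had -1.19 (SE 0.31, adjusted p = 0.00261; with cyclic loess -0.56, adjusted p = 0.117) and Ephb4 peak 6 (chr5:137792945-137794069) -1.83 (SE 0.51, adjusted p = 0.00474, edgeR). Nr2f2 peak 11 kept more of its accessibility, at 69.8, 45.1, 33.4 and 59.4 CPM against 86, 78 and 105 CPM in pre-HSC I (-0.80, adjusted p = 0.0518, edgeR, not called). Against EC it fell by 1.26 on the log2 scale (SE 0.24, adjusted p = 3.74e-05, edgeR), and by 0.60 with cyclic loess (adjusted p = 0.0421). Nr2f2 peak 6, at 5.24, 1.25, 2.39 and 2.97 CPM, lay below all EC libraries, whose levels were 17.4, 20.2, 36.6 and 19.1 CPM (-3.02, SE 0.60, adjusted p = 9.64e-05, edgeR).

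In the Gja5 window, peaks 4 and 5 were called lower in pre-HSC II than in pre-HSC I. Gja5 peak 4 had 8.73, 0, 1.19 and 3.71 CPM in pre-HSC II and 20.5, 3.54 and 25.6 CPM in pre-HSC I. The groups overlapped through the merged libraries 2 and 3 (-2.37, SE 0.60, adjusted p = 0.0115, edgeR). Gja5 peak 5 had 0, 5.01, 4.78 and 1.49 CPM against 15.4, 10.1 and 19.1 CPM, without overlap (-2.36, SE 0.66, adjusted p = 0.0247, edgeR). The alternatives lost the call of Gja5 peak 4 in 6 of 16 settings. That of Gja5 peak 5 was lost in 9 of the 15 in which it passed the filter on low counts. Against EC, Gja5 peak 4 had -1.65 (SE 0.58, adjusted p = 0.0285, edgeR) with overlapping groups, and 11 of 16 alternatives lost that call, with DESeq2 and each other scaling among them (adjusted p up to 0.205). The count of 11 against pre-HSC I fell to 7 without pre-HSC II library 2 and to 7 with cyclic loess. Over all tested peaks these settings called 253 higher and 1428 lower, and 1003 and 968, against 564 and 2747.

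Summed over all 69 peaks, called or not, the windows gave each library 1 arterial and 1 venous level. The Efnb2 window summed to 385 ± 35.3 CPM in E8.5 EC and 558 ± 87.1 CPM in E8.5 HE, to 515 ± 72.9 and 732 ± 90.7 CPM at E9.5, and to 522 ± 63.7 and 601 ± 160 CPM at E10.5 (mean ± SD, n = 4 each). The Gja5 window went from 19.2 ± 0.877 to 42.1 ± 4.99 CPM, from 23.2 ± 7.92 to 66.9 ± 13.4 CPM and from 29.6 ± 2.87 to 74.7 ± 17.2 CPM in the same order. The Ephb4 window had 252 ± 37 and 311 ± 85.9 CPM at E8.5, 498 ± 46.1 and 325 ± 37.9 CPM at E9.5, and 453 ± 156 and 277 ± 140 CPM at E10.5. For Nr2f2 the sums were 177 ± 21 and 158 ± 22.6 CPM, 250 ± 19.3 and 146 ± 17.9 CPM, and 256 ± 23.5 and 187 ± 23.6 CPM. Pre-HSC II had the lowest mean in each window, at 233 ± 42.9, 13.4 ± 4.73, 97.9 ± 37.7 and 113 ± 29.7 CPM (SD, n = 4).

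Within each library the log2 ratio of the arterial sum (Efnb2 and Gja5) to the venous sum (Ephb4 and Nr2f2) does not depend on scaling by depth. It ran from -0.22 to 0.16 in E8.5 EC and from 0.24 to 0.50 in E8.5 HE. At E9.5 it was -0.71 to -0.32 in EC and 0.65 to 1.00 in HE, and at E10.5 -0.59 to -0.17 in EC and 0.39 to 0.75 in HE. HE and EC libraries did not overlap on any day, and the gap was widest at E9.5. Pro-HSC/HPC lay at 0.13 to 1.05, pre-HSC I at 0.15 to 0.55 and pre-HSC II at -0.27 to 0.87, all overlapping the HE libraries of their day. Pre-HSC II also overlapped E10.5 EC through library 1 at -0.27. That library and pre-HSC II library 4, at 0.0074, lay below every E10.5 HE library, and pre-HSC II library 2, at 0.87, above them. The merged pre-HSC I libraries 2 and 3, at 0.15, and library 4, at 0.22, also lay below every E10.5 HE library. Pre-HSC I thus overlapped HE through library 1 alone, at 0.55. Pro-HSC/HPC library 3, at 0.13, lay below every E9.5 HE library and library 2, at 1.05, above them. The pre-HSC II range was the widest of the 3 blood-forming groups, and its libraries had the fewest counts. The ratio is a description of the members and was not tested. Most of the arterial sum came from the Efnb2 window. The log2 ratio of the Efnb2 to the Ephb4 sum ran from 0.36 to 1.03 in E8.5 EC and 0.62 to 1.07 in E8.5 HE. These groups overlapped, while EC and HE of E9.5 and of E10.5 did not.

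**Figure D4:**
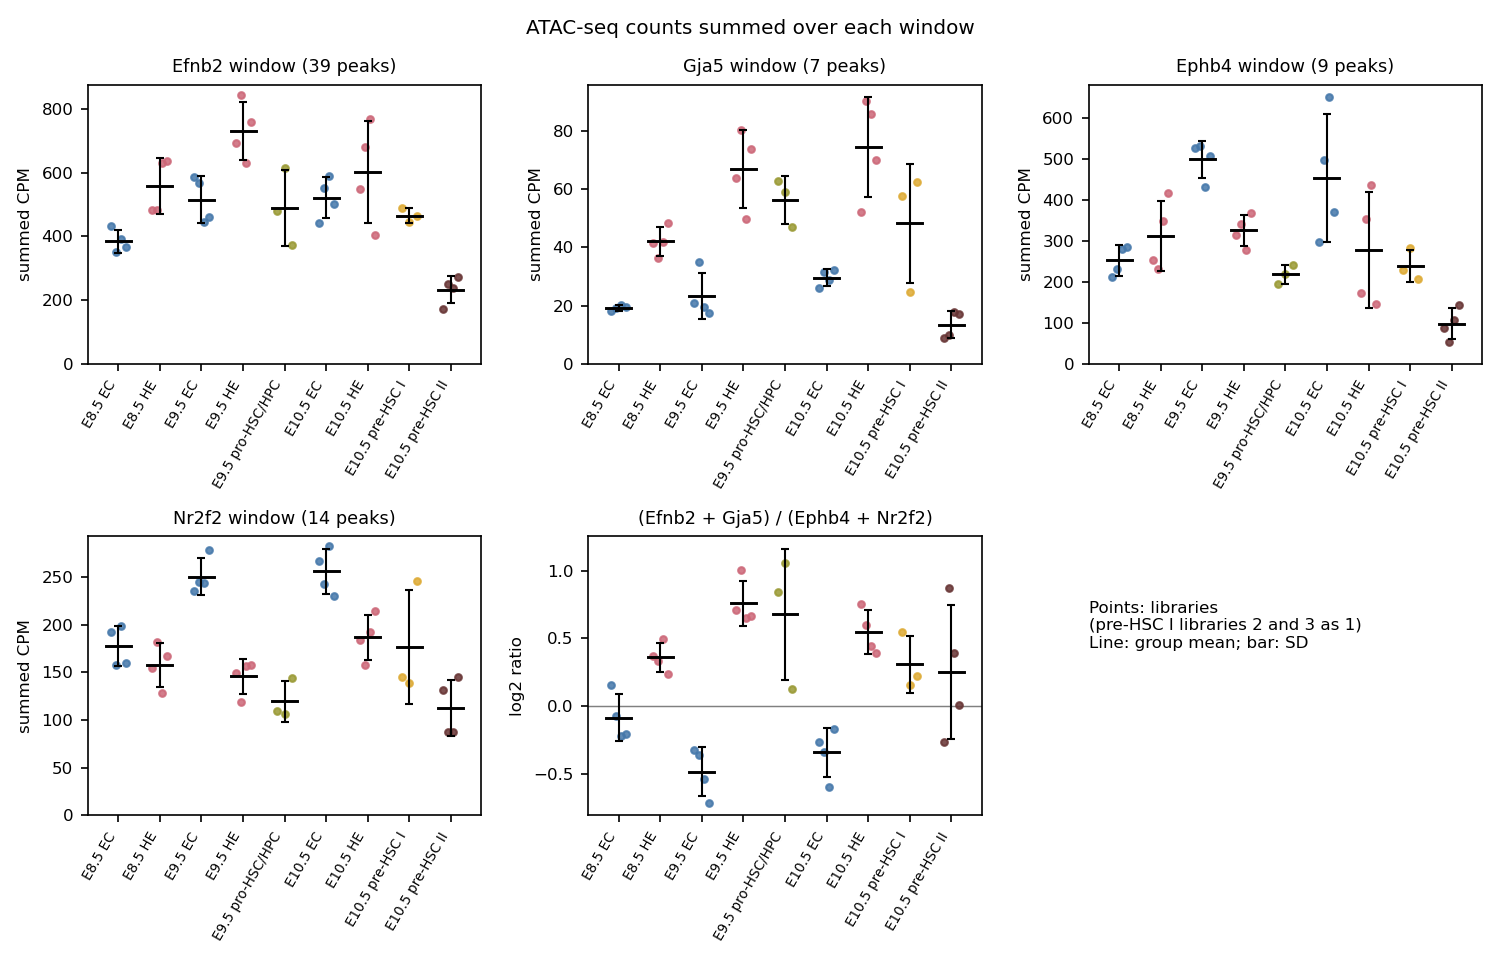
Summed CPM of all peaks in each window (4 panels) and the log2 ratio of the arterial to the venous sums (5th panel), with 1 point per library, the group mean and SD, and the 9 groups along the x axis. The ratio of every HE library lies above that of every EC library of the same day, and pre-HSC II has the lowest mean sum in each window.

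Over the 34 samples, the highest peaks of the windows moved together to different degrees on the log2 (CPM + 1) scale. Pearson's r was 0.615 between Efnb2 peak 15 and Gja5 peak 4, 0.63 between Efnb2 peak 15 and Ephb4 peak 4, and 0.61 between Ephb4 peak 4 and Nr2f2 peak 11. It was 0.25 between Gja5 peak 4 and Nr2f2 peak 11. These values describe samples that share library depth and the study's groups. Outside the windows, the peaks most like Efnb2 peak 15 were chr2:153566523-153567831 (r = 0.908) and chr7:51803580-51804864 (r = 0.901). For Gja5 peak 4 they were chr15:38814605-38815123 (r = 0.848) and chr4:97496840-97497588 (r = 0.844). Ephb4 peak 4 was most like chr11:79552168-79553284 (r = 0.952) and a peak on chromosome 18 (r = 0.949), close to its value with Ephb4 peak 3 in its own window (r = 0.948). Nr2f2 peak 11 was most like chr14:79557625-79557950 (r = 0.867) and chr5:46317016-46317906 (r = 0.827), above its value with Nr2f2 peak 6 (r = 0.692). Across all tested peaks the median r with these members was 0.0935 for Efnb2 peak 15, 0.0817 for Gja5 peak 4, 0.114 for Ephb4 peak 4 and 0.0186 for Nr2f2 peak 11.

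The window edges left strong peaks of the Gja5 neighbourhood outside. The nearest peaks before and after the Gja5 window, chr3:96757455-96758500 and chr3:96961724-96963464, had 28.7 and 50.9 CPM, above the 13.9 CPM of its highest member. At the other windows the nearest outside peaks were weak, at 1.56 and 2.56 CPM for Efnb2, 3.56 and 5.79 CPM for Ephb4 and 4.33 and 2.76 CPM for Nr2f2.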

How the data were processed

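ATAC-seq of 35 libraries was analysed from 1 deposited table of raw read counts per peak, which the authors gave without normalization. The submitters' processing notes name build mm9 and, with no role or setting, MACS2 2.0.1, DiffBind 1.14.6, Bowtie 1.0.0, Trim Galore 0.3.1, bedtools 2.17.0, deepTools and SAMtools. No source used here says how reads were filtered, shifted or counted in peaks. Even counts made up 54.1% to 78.2% of counts from 10 to 49, so reads may come in pairs and counting intervals may be too narrow.

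Peaks with low counts were filtered per group (filterByExpr), 67131 remained, and TMM set the scale. All 34 samples entered 1 quasi-likelihood fit with a mean per group (edgeR 4.0.16 in R 4.3.3, glmQLFTest, two-sided tests), with a common dispersion of 0.147 and 25 residual degrees of freedom. The test was also run on simulated counts with known changes and the same dispersion for every peak, and the outcome is not given here. Peaks were named by 3 sets of criteria: the 4 highest in each window, up to 3 with the smallest adjusted p per comparison and direction, and the 2 outside peaks most like each window's highest. The nearest peak beyond each window edge was added. A floor of 3 counts over the group gave the fold bounds, and the intervals of count ratios are at the 95% level for counting error. The interval of a log2 difference comes from the fit's SE.

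The loci, windows and lists were chosen with earlier results of these data known. Alternatives were DESeq2 1.42.0, RLE size factors, total counts, cyclic loess (limma 3.58.1), no filter, thinning, fits of the compared groups alone with and without a replicate block, and leaving out libraries. At E10.5 EC and HE libraries of the same number deviated together (Pearson r of 0.127 to 0.349 over peaks, every pair over 0.1), the pairing coming from the numbers in the titles. Tables and figures used Python 3.11.15, numpy 2.4.6, pandas 2.3.3 and matplotlib 3.10.9.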

Additional observations from a re-analysis of the deposited data

Results flagged for a closer look

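The change of the HE over EC difference at Efnb2 peak 33 from E8.5 to E9.5 was -2.50 on the log2 scale (adjusted p = 0.00378, edgeR). This 1 call was 1.75% of the tested members, near the 1.49% of all tested peaks. The call was lost without the 4 shallow E8.5 libraries (adjusted p = 0.138), without 3 E9.5 libraries (adjusted p = 0.0585) and with thinning (adjusted p = 0.108, edgeR).

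In 11 of 195 sets of 4 libraries tested for a value far from the other 3, the highest or lowest library stood apart, where chance alone gives about 5% of sets. The high ones were Gja5 peak 6 in E8.5 EC library 1 (7.20 CPM, the others 0 to 0.758), Gja5 peak 3 in E10.5 HE library 4 (21.8 CPM, the others 4.09 to 6.44), Nr2f2 peak 6 in E10.5 EC library 3 (36.6 CPM, the others 17.4 to 20.2), Efnb2 peak 7 in E8.5 HE library 2 (9.07 CPM, the others 3.61 to 4.15), Efnb2 peak 5 in E8.5 EC library 2 (14.0 CPM, the others 2.13 to 3.03) and Efnb2 peak 26 in E8.5 EC library 4 (1.42 CPM, the others 0). The low ones were Efnb2 peak 18 in E9.5 HE library 3 (38.8 CPM, the others 60.1 to 63.1), Gja5 peak 6 in E9.5 HE library 2 (10.9 CPM, the others 16.5 to 17.2), Ephb4 peak 4 in E9.5 EC library 3 (173 CPM, the others 245 to 258), Ephb4 peak 6 in E10.5 HE library 4 (6.45 CPM, the others 10.9 to 11.4) and Nr2f2 peak 6 in E9.5 HE library 1 (3.74 CPM, the others 5.46 to 5.70).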

How the results depend on the processing

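Of the peaks named, 40 called differences were recomputed under 653 alternatives: 536 kept the call, 117 lost it and 0 changed direction. A setting in which a peak failed the filter on low counts is not among the 653 and was not counted as lost. The counts of called members moved more, and the cause was not tested. Calls over all tested peaks moved too. For HE against EC at E8.5, 871 higher and 88 lower became 1980 and 350 with DESeq2. At E9.5, 912 and 821 became 1467 and 1554 with DESeq2, and 2786 and 3517 with the compared groups alone. For the change from E8.5 to E9.5, the compared groups alone gave 1025 and 3262, against 1003 in either direction. For HE against EC at E8.5 (3 calls), DESeq2 gave 5, a fit of the compared groups alone 5 and leaving out the 4 shallow E8.5 libraries 1. At E9.5 (7 calls), DESeq2 gave 11, thinning every library to the shallowest 2, the compared groups alone 19, leaving out 3 libraries (EC 3, EC 4 and HE 4) that were high in 1 chromosome X peak 0, and leaving out single libraries 1 to 6. At E10.5 (2 calls), DESeq2 gave 7, thinning 1, the compared groups alone 0, and leaving out single libraries 0 to 3. For E9.5 against E8.5 EC (7 calls), cyclic loess gave 3, thinning 4 and leaving out the 4 shallow E8.5 libraries 1. Leaving out those E9.5 libraries gave 4, and single libraries 4 to 7. For pro-HSC/HPC (4 calls), thinning gave 1, the compared groups alone 9 and single libraries 1 to 4. For pre-HSC I against HE (0 calls), keeping libraries 2 and 3 apart gave 1 and leaving out HE libraries 1 and 4 gave 3. For pre-HSC II against pre-HSC I (11 calls), cyclic loess gave 7, thinning 5, the compared groups alone 4 and single libraries 7 to 13. For pre-HSC II against EC (24 calls), thinning gave 11 and the compared groups alone 15. For the change of HE over EC from E8.5 to E9.5 (1 call), DESeq2 gave 5, RLE 2, cyclic loess 2, the compared groups alone 8, and leaving out the 4 shallow E8.5 or those 3 E9.5 libraries 0.

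The replicate number was also entered as a block in those fits of the compared groups. For HE against EC, 5 members were called at E8.5, 19 at E9.5 and 9 at E10.5. Over all tested peaks these fits called 2406 higher and 1191 lower, 3206 and 4047, and 729 and 1738. With the block 7 members were called for pro-HSC/HPC, 2 for pre-HSC II against pre-HSC I, 14 against EC, and 7 for the change from E8.5 to E9.5. The numbers paired the libraries at E10.5 HE against EC alone; elsewhere at least 1 pair correlated at or under 0.1, and the samples share only a number. As a hint from the data, every sample correlated best with its own number for pro-HSC/HPC against HE (6 of 6) and for HE against EC at E10.5 (8 of 8), and in no other comparison. Depth limited what the pre-HSC II libraries, at 456770 to 1241216 counts, could show.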
